A study of Mus musculus with 8 samples.

Results

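The TCF/LEF transcription factors were described in mouse embryonic stem cells with and without β-catenin. The family has 4 genes, Tcf7, Tcf7l1, Tcf7l2 and Lef1, and they were chosen by gene name. All 4 were among the 48440 genes of the deposited count table, and all 4 passed the filter on low counts, which left 17739 genes to test. The cells were of the 129/Ola background, labelled as blastocyst-stage embryonic stem cells, and grew in medium with fetal bovine serum on gelatin without feeder cells. The β-catenin knock-out line (CTNNB1-/-) and its parental line (CTNNB1+/+) each grew for 72 hours in CHIR99021 (3 μM), which blocks the kinase GSK3, or in the solvent alone (DMSO, 0.3 μl/ml). That gives 4 groups of 2 libraries: knock-out with CHIR99021, knock-out with DMSO, parental with CHIR99021 and parental with DMSO. Genotype and line cannot be told apart here, since there was 1 line of each genotype, and the labels say neither how the knock-out was made nor whether replicates were separate cultures. The p-values thus rest on the spread between replicate libraries, part or all of which may be technical.

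TCF/LEF proteins bind DNA through an HMG box and take β-catenin as their co-activator. GSK3 marks β-catenin for destruction, so an inhibitor of GSK3 lets it build up and enter the nucleus. Without β-catenin the factors bind Groucho/TLE co-repressors and hold their targets down. In mouse embryonic stem cells Tcf7l1, also called Tcf3, is known chiefly as a repressor of pluripotency genes and Tcf7, also called Tcf1, chiefly as an activator with β-catenin. Tcf7l2 (Tcf4) and Lef1 are best known from the intestine and from lymphoid and embryonic tissues.

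The libraries held 23650572 to 27680649 estimated counts. Ctnnb1, which encodes β-catenin, was at 8.70 and 9.42 CPM (counts scaled to a fixed library total) in knock-out cells with CHIR99021 and 7.98 and 10.7 CPM in knock-out cells with DMSO, against 813.4 and 843.5 CPM in parental cells with CHIR99021 and 887.5 and 905.6 CPM in parental cells with DMSO, as the labels say. The 8 markers of embryonic stem cells summed to between 4874 and 5504 CPM in every library, but single markers changed. With CHIR99021 in parental cells 5 of the 8 were called lower and 1 higher (edgeR, adjusted p under 0.05), where 10.3% and 9.10% of all genes were. Utf1 averaged 93.1 CPM with CHIR99021 and 170.7 CPM with DMSO there, and Klf4 280.3 and 235.6 CPM. The 6 feeder fibroblast markers summed to 9.31 to 10.5 CPM in knock-out cells with CHIR99021 and 8.37 to 9.23 CPM in knock-out cells with DMSO, against 7.47 to 8.32 CPM in parental cells with CHIR99021 and 5.11 to 5.93 CPM in parental cells with DMSO. Postn and Lum were at 0 throughout, and without Thy1, which differed between groups, the sums lay between 1.33 and 2.42 CPM. The 4 lymphoid markers summed to 1.35 CPM at most. In bulk RNA, fewer cells of a type and less RNA per cell cannot be told apart. Genes of early differentiation differed between groups. The 6 primitive streak markers summed to 2.59 to 2.63 CPM in knock-out cells with CHIR99021 and 3.24 to 3.26 CPM in knock-out cells with DMSO, against 42.2 to 44.0 CPM in parental cells with CHIR99021 and 3.005 to 3.195 CPM in parental cells with DMSO. The higher sum came from T and Eomes: the other 4 summed to 1.302 to 1.463 CPM there and to 1.12 to 1.53 CPM in the other groups. The trophoblast sums, over 6 genes, were 26.4 to 27.1, 22.7 to 24.4, 65.4 to 65.9 and 21.1 to 21.6 CPM in the same order of groups. Eomes is on this list too, and without it they were 25.4 to 25.9, 21.4 to 23.0, 35.1 to 35.5 and 19.6 to 20.2 CPM. Those of 5 neural genes, of which Neurog2 was at 0, were 81.8 to 83.6, 99.4 to 107.1, 48.3 to 49.2 and 101.3 to 102.7 CPM. Most of each neural sum was Tubb3, and without it they were 20.14 to 22.78, 24.21 to 26.48, 14.76 to 15.32 and 27.95 to 28.47 CPM. Those of 6 primitive endoderm genes were 28.2 to 30.8, 30.8 to 31.5, 13.4 to 14.8 and 22.5 to 23.1 CPM. Within parental cells the lower value with CHIR99021 came from Sox7, since the other 5 summed to 9.23 to 9.41 CPM with CHIR99021 and 8.11 to 9.25 CPM with DMSO. In the knock-out these 5 were higher, at 19.43 to 21.17 CPM with CHIR99021 and 18.78 to 19.15 CPM with DMSO. The part of these cells or genes in the TCF/LEF values was not tested.

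With CHIR99021 the family changed its make-up in parental cells: Tcf7 rose 1.66-fold while Tcf7l1 fell to 0.478 and Tcf7l2 to 0.725 of the DMSO level. In the knock-out Tcf7 was at 0.866 of its DMSO level, which did not pass the test, and Tcf7l1 fell to 0.754 of its DMSO level. Without CHIR99021 no member passed the test between the lines. Lef1 was near the limit of detection in all groups. Changes are log2 fold changes with their standard error (SE) from edgeR's quasi-likelihood test, called at a Benjamini-Hochberg adjusted p under 0.05 over all genes tested. The comparisons share libraries, so they are not separate lines of evidence.

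Tcf7 (ENSMUSG00000000782) lies on the minus strand of chromosome 11, 52252371 to 52283014 (GRCm38), with 2 annotated transcripts, both coding. Its level was 24.1 and 23.4 CPM in knock-out cells with CHIR99021 and 26.3 and 28.6 CPM in knock-out cells with DMSO. It was 44.4 and 45.3 CPM in parental cells with CHIR99021 and 26.7 and 27.5 CPM in parental cells with DMSO. The 2 parental CHIR99021 libraries stood above the other 6, and the DMSO libraries of the lines overlapped. In parental cells CHIR99021 raised Tcf7 by 0.73 ± 0.06 on the log2 scale (SE; adjusted p = 8.71e-06). In the knock-out the change was -0.21 ± 0.06 (SE; adjusted p = 0.0718), with libraries that did not overlap. The response of the knock-out minus that of parental cells was -0.93 ± 0.09 (SE; adjusted p = 8.47e-05). With CHIR99021 the knock-out stood lower than parental cells by 0.91 ± 0.06 on the log2 scale (adjusted p = 1.57e-06). With DMSO the lines differed by 0.02 ± 0.06, with a 95% interval of -0.12 to 0.16 (adjusted p = 0.903).

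Tcf7l1 (ENSMUSG00000055799) lies on the minus strand of chromosome 6, 72626378 to 72789254, with 5 annotated transcripts, 3 of them coding. It had 48.9 and 44.2 CPM in knock-out cells with CHIR99021 and 60.8 and 62.7 CPM in knock-out cells with DMSO. It had 27.5 and 25.7 CPM in parental cells with CHIR99021 and 53.5 and 57.7 CPM in parental cells with DMSO. No 2 groups overlapped, and the order, from the highest, was knock-out DMSO, parental DMSO, knock-out CHIR99021 and parental CHIR99021. CHIR99021 lowered it in both lines, with log2 values of -0.41 ± 0.06 in the knock-out (SE; adjusted p = 0.00402) and -1.06 ± 0.07 in parental cells (SE; adjusted p = 1.12e-06). The call in the knock-out was lost without knock-out CHIR99021 replicate 2, at -0.34 (adjusted p = 0.0525). The 2 falls differed in size: the response of the knock-out minus that of parental cells was 0.66 ± 0.09 (SE; adjusted p = 0.00141). Of the genes tested, 5.46% changed by more than Tcf7l1 in parental cells, in either direction. With CHIR99021 the knock-out stood higher than parental cells by 0.81 ± 0.07 on the log2 scale (adjusted p = 9.34e-06). With DMSO the difference was 0.15 ± 0.06 (SE; adjusted p = 0.192).

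Tcf7l2 (ENSMUSG00000024985) lies on the plus strand of chromosome 19, 55741820 to 55933654, and has 22 annotated transcripts, 12 of them coding. Its libraries were at 15.3 and 14.0 CPM in knock-out cells with CHIR99021 and 16.5 and 18.0 CPM in knock-out cells with DMSO. They were at 10.8 and 11.4 CPM in parental cells with CHIR99021 and 14.7 and 15.9 CPM in parental cells with DMSO. The parental CHIR99021 libraries were the lowest of the 8, and knock-out CHIR99021 overlapped parental DMSO. CHIR99021 lowered Tcf7l2 in parental cells, with a change of -0.46 ± 0.09 (SE; adjusted p = 0.00351). In the knock-out the change was -0.23 ± 0.08 (SE; adjusted p = 0.122). The responses were not shown to differ: the knock-out minus the parental response was 0.23 ± 0.12, with a 95% interval of -0.03 to 0.50 (adjusted p = 0.309). With CHIR99021 the knock-out stood higher than parental cells by 0.40 ± 0.09 (SE; adjusted p = 0.00644), a call lost without parental CHIR99021 replicate 1 (adjusted p = 0.0598) or knock-out CHIR99021 replicate 1 (0.0564). With DMSO the difference was 0.17 ± 0.08 (SE; adjusted p = 0.271).

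Lef1 (ENSMUSG00000027985) lies on the plus strand of chromosome 3, 131110471 to 131224356, and has 8 annotated transcripts, 4 of them coding. It was detected at 0.284 and 0.888 CPM in knock-out cells with CHIR99021 and 0.689 and 0.343 CPM in knock-out cells with DMSO. It was at 0.460 and 0.627 CPM in parental cells with CHIR99021 and 0.644 and 0.456 CPM in parental cells with DMSO. All groups overlapped. The summed counts were 31, 28, 27 and 26 in the same order of groups, so a change of moderate size was not detectable at this depth. The ratio of counts with CHIR99021 to those with DMSO was 1.10 in the knock-out (exact 95% interval 0.640 to 1.91) and 0.984 in parental cells (0.553 to 1.75), intervals that cover counting error only. Log2 fold changes in the 5 comparisons lay between -0.08 and 0.18 (adjusted p 0.905 to 0.989).

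**Figure D1:**
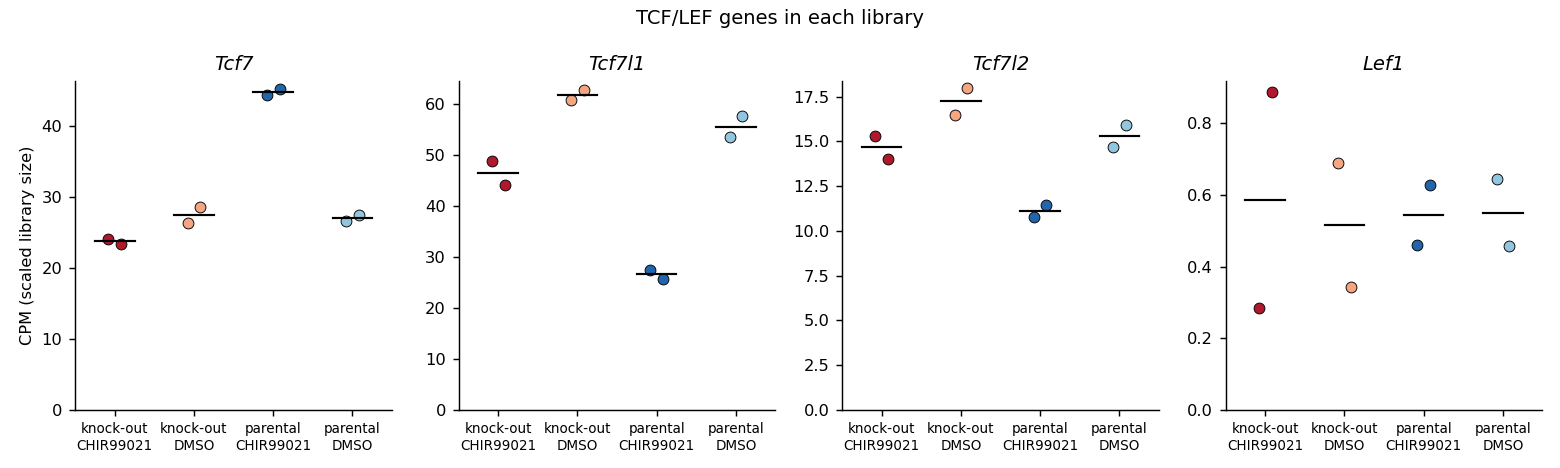
Level of each TCF/LEF gene in CPM (linear axes from 0, 1 scale per gene) in the 2 libraries of each group, as points, with the group mean as a line. Tcf7 stands at 44.4 and 45.3 CPM in parental cells with CHIR99021, above all other libraries, where Tcf7l1 and Tcf7l2 are lowest.

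Counted over the family, CHIR99021 in the knock-out gave 0 members higher, 1 lower and 3 not called, where 7.06% of all genes tested were called. In parental cells 1 rose, 2 fell and 1 was not called, where 19.4% of all genes were called. Between the lines in CHIR99021, 2 were higher in the knock-out, 1 lower and 1 not called, beside 23.7% of all genes. With DMSO no member was called by edgeR, beside 6.75% of all genes. Only Tcf7l1, 1 of the 4, had an unadjusted p under 0.05 there (edgeR), and DESeq2 and limma-voom called 0. The responses of the lines differed for 2 members, Tcf7 and Tcf7l1, where 6.13% of all genes differed, 3.22% with the higher and 2.91% with the lower response in the knock-out.

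**Figure D2:**
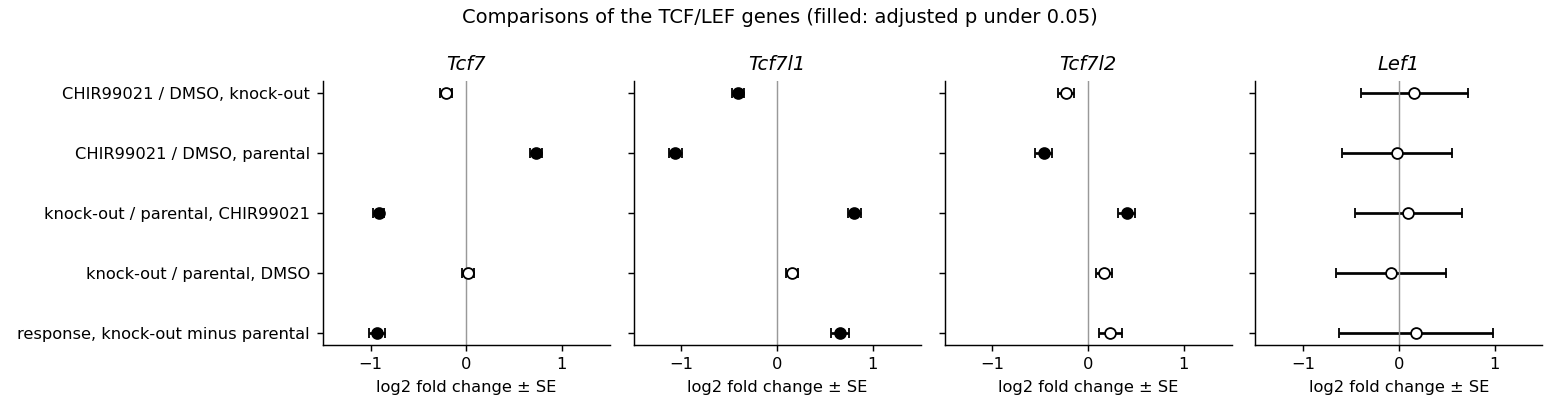
Log2 fold changes (x axis) of the 4 genes in the 5 comparisons (rows), with bars of 1 SE and filled points for an adjusted p under 0.05. Tcf7 and Tcf7l1 moved in opposite directions with CHIR99021 in parental cells, at 0.73 and -1.06, and the bars of Lef1 are the widest.

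Levels of different genes were set side by side as CPM per kilobase of transcript, with the median length of each gene's annotated coding transcripts (2106.5 bases for Tcf7, 1888 for Tcf7l1, 2925.5 for Tcf7l2 and 3377.5 for Lef1). On this scale Tcf7l1 was the highest member in 3 groups and Tcf7 in the fourth, parental cells with CHIR99021. Tcf7l1 was at 25.9 and 23.4 CPM per kilobase in knock-out cells with CHIR99021, against 14.6 and 13.6 in parental cells with CHIR99021. Tcf7 was at 11.5 and 11.1 CPM per kilobase in knock-out cells with CHIR99021, against 21.1 and 21.5 in parental cells with CHIR99021. Tcf7l2 came after both and Lef1 last in every library. The order of the top pair in each group was the same with the longest coding transcript and with merged exons as the length, but shares and ratios depend on that choice.

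Of the summed family signal, Tcf7 made up 26.8% and 28.1% in knock-out cells with CHIR99021 and 24.7% and 25.6% in knock-out cells with DMSO. Its share was 53.4% and 54.9% in parental cells with CHIR99021 and 27.4% and 26.5% in parental cells with DMSO. Tcf7l1 made up 60.7% and 59.1%, 63.8% and 62.6%, 36.9% and 34.7%, and 61.3% and 62.2% in the same groups. Tcf7l2 lay between 9.33% and 12.3% in all libraries, lowest in parental cells with CHIR99021 at 9.33% and 9.96%, and Lef1 stayed under 1%. With merged exons as the length the mean share of Tcf7 was 40.0%, 37.1%, 67.8% and 39.3% in the same order of groups, and that of Tcf7l2 ran from 5.02% to 7.37%. The sum of the 4 was 42.7 and 39.6 CPM per kilobase in knock-out cells with CHIR99021 and 50.5 and 53.1 in knock-out cells with DMSO, against 39.4 and 39.2 in parental cells with CHIR99021 and 46.2 and 49.2 in parental cells with DMSO.

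**Figure D3:**
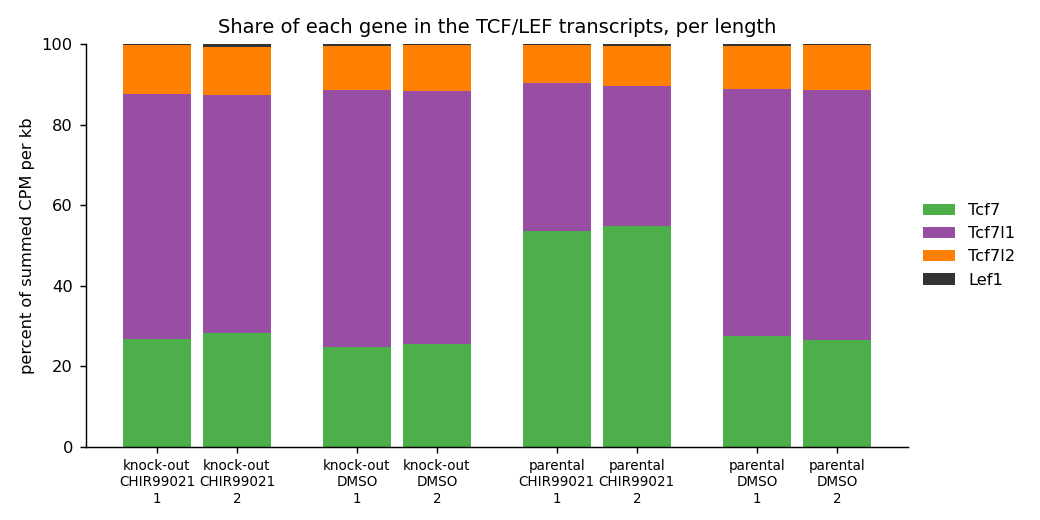
Share of each gene in the summed CPM per kilobase of the family (y axis, percent) in each library, 1 bar per library. Tcf7 takes 53.4% and 54.9% in parental cells with CHIR99021 and 24.7% to 28.1% in the other 6 libraries.

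The ratio of Tcf7 to Tcf7l1 puts the known activator against the known repressor. Per kilobase it was 0.442 and 0.476 in the knock-out CHIR99021 libraries and 0.388 and 0.409 in the knock-out DMSO libraries, given from the lower to the higher. It was 1.45 and 1.58 in the parental CHIR99021 libraries and 0.427 and 0.447 in the parental DMSO libraries. The ratio was 3.46 times as high with CHIR99021 as with DMSO in parental cells and 1.15 times in the knock-out, folds from which transcript length cancels. The ratio itself moved with the length used: with merged exons it averaged 2.53 in parental cells with CHIR99021 and 0.729 in parental cells with DMSO. With 2 libraries against 2 an exact permutation test cannot go below p = 0.333, so the ratios carry no test. The ratio of Tcf7l2 to Tcf7l1 was 1.13 times as high with CHIR99021 in the knock-out and 1.52 times in parental cells. Counts are per gene, so transcripts of Tcf7 or Tcf7l2 that lack the β-catenin binding end were not separated from those that hold it.

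The genes whose pattern over the 8 libraries was most like that of a member were found by Pearson's r of log2 CPM. The search covered 1368 genes of at least 5 CPM that ranged over groups by at least 0.5 on the log2 scale. Genes with clone names (Gm, AC or BC with digits, or ending in Rik) were left out. The r values describe 4 groups of 2 libraries and carry no test. For Tcf7 the most alike were Axin2 (r = 0.992), Lhpp, a phosphatase gene (0.990), and Trmt44, a tRNA methyltransferase gene (0.989). Axin2, a scaffold that promotes the destruction of β-catenin, was at 2.88 and 2.82 CPM in knock-out cells with CHIR99021 and 5.18 and 4.85 CPM in knock-out cells with DMSO. It was at 42.5 and 41.5 CPM in parental cells with CHIR99021 and 3.86 and 4.69 CPM in parental cells with DMSO. Over the 6 libraries other than parental CHIR99021 its r with Tcf7 was 0.880, and those of Lhpp and Trmt44 were 0.852 and 0.832. For Tcf7l1 the most alike were Atp11a, which encodes a phospholipid flippase (r = 0.998), Rasgrp2 (0.996) and Adamts14, a secreted metalloprotease gene (0.995), and over the 6 libraries these were 0.992, 0.961 and 0.962. Rasgrp2, an exchange factor for small GTPases, was at 59.7 and 58.5 CPM in knock-out cells with CHIR99021 and 75.3 and 75.7 CPM in knock-out cells with DMSO. It was at 36.5 and 34.5 CPM in parental cells with CHIR99021 and 66.9 and 67.2 CPM in parental cells with DMSO, the same order of groups as Tcf7l1. For Tcf7l2 they were Pced1b (0.988), Adamts14 (0.983) and Zfp36 (0.978), an RNA-binding protein gene, and over the 6 libraries 0.962, 0.956 and 0.873. The closest gene to Lef1 reached only 0.714, and with so few counts nothing was read from it.

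The proteins that TCF/LEF factors work with were followed in 3 lists. Among 11 co-activators and partners, CHIR99021 in the knock-out lowered 1 and raised none, where 4.18% of all genes fell. That gene was Jup, which encodes plakoglobin, a close relative of β-catenin. Jup was at 100.7 and 97.2 CPM in knock-out cells with CHIR99021 and 130.7 and 122.4 CPM in knock-out cells with DMSO. It was at 127.2 and 121.9 CPM in parental cells with CHIR99021 and 125.3 and 128.0 CPM in parental cells with DMSO, so the knock-out CHIR99021 libraries were the lowest. The fall was -0.36 ± 0.05 in the knock-out (SE; adjusted p = 0.00162) and the value in parental cells -0.02 ± 0.05 (adjusted p = 0.768). The responses differed by -0.33 ± 0.07 (SE; adjusted p = 0.0123), a call lost without parental DMSO replicate 1 (adjusted p = 0.0502), parental CHIR99021 replicate 1 (0.0613) or knock-out CHIR99021 replicate 2 (0.0695). In parental cells 1 of the 11 rose, the Mediator subunit gene Med12 by 0.21 ± 0.05 (adjusted p = 0.0103), and 1 fell, the acetyltransferase gene Crebbp by -0.26 ± 0.06 (adjusted p = 0.0120), where 9.10% of all genes rose and 10.3% fell. Both calls were lost without parental DMSO replicate 2 (adjusted p = 0.0825 and 0.0924) or parental CHIR99021 replicate 2 (0.0672 and 0.0904). The list's median log2 fold change was -0.06 in the knock-out and -0.02 in parental cells, beside 0.00 over all genes in both.

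Of 10 tested co-repressor genes 2 fell in the knock-out, where 4.18% of all genes fell, and 5 in parental cells with CHIR99021, where 10.3% did, and none rose in either. The list's median log2 fold change was -0.06 in the knock-out and -0.15 in parental cells. Tle4, a Groucho-type co-repressor, was at 68.2 and 72.9 CPM in knock-out cells with CHIR99021 and 91.5 and 91.4 CPM in knock-out cells with DMSO. It was at 48.8 and 50.9 CPM in parental cells with CHIR99021 and 82.7 and 82.2 CPM in parental cells with DMSO. Its log2 fold change was -0.37 ± 0.05 in the knock-out (SE; adjusted p = 0.00145) and -0.73 ± 0.05 in parental cells (SE; adjusted p = 1.80e-06). The responses differed by 0.35 ± 0.07 (SE; adjusted p = 0.0108), which was lost without knock-out CHIR99021 replicate 2 (adjusted p = 0.0645). Ctbp2 fell by 0.20 in the knock-out and 0.16 in parental cells on the log2 scale (adjusted p = 0.0103 and 0.0114). The other falls in parental cells were those of Tle1 by 0.34, Hdac2 by 0.20 and Hdac1 by 0.18 (adjusted p 0.0189 to 0.0408). Over the 8 fits that left out 1 library the count in parental cells ran from 1 to 5, and in the knock-out from 1 to 2. In parental cells Tle4 was called in all 8, and Ctbp2, Tle1, Hdac1 and Hdac2 were each lost without 2 or more of the libraries.

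Among 9 tested genes that modify or inhibit TCF/LEF factors, 3 fell and none rose in parental cells with CHIR99021, where 10.3% of all genes fell and 9.10% rose. In the knock-out 0 were called by edgeR, where 5 had an unadjusted p under 0.05, and DESeq2 called 0 and limma-voom 1. The median was -0.07 in the knock-out and -0.11 in parental cells. The 3 were Sox7, Tnik and Hipk2. Sox7, an HMG-box factor that can oppose β-catenin and also a marker of primitive endoderm, was at 9.63 and 8.73 CPM in knock-out cells with CHIR99021 and 12.7 and 11.6 CPM in knock-out cells with DMSO. It was at 4.14 and 5.35 CPM in parental cells with CHIR99021 and 14.3 and 13.9 CPM in parental cells with DMSO. Its change was -0.40 in the knock-out (adjusted p = 0.0561) and -1.57 ± 0.12 in parental cells (SE; adjusted p = 5.45e-06). Tnik, a kinase known from intestine and colorectal cancer cells to phosphorylate Tcf7l2, changed by -0.24 in the knock-out (adjusted p = 0.294) and fell by 1.32 on the log2 scale in parental cells (adjusted p = 5.86e-05). Hipk2, a kinase known from frog embryos to phosphorylate Tcf7l1, was at -0.27 in the knock-out (adjusted p = 0.117) and fell by 0.95 in parental cells (adjusted p = 6.79e-05). The responses differed for 3 of the 9, these same genes, where 3.22% of all genes had the higher response in the knock-out. The parental libraries enter both tests, so the 2 counts are not separate. The difference was 1.17 ± 0.17 for Sox7, 1.08 ± 0.19 for Tnik and 0.68 ± 0.14 for Hipk2 (SE; adjusted p = 0.00158, 0.00657 and 0.0146). The call for Hipk2 was lost without parental CHIR99021 replicate 1 (adjusted p = 0.0694), knock-out DMSO replicate 1 (0.0611) or knock-out CHIR99021 replicate 1 (0.0526).

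Between the lines in CHIR99021, 4 of the 9 modifiers were higher in the knock-out and none lower, where 11.2% of all genes were higher and 12.5% lower. They were Sox7 by 0.96, Tnik by 0.85, Hipk2 by 0.84 and Mdfi by 0.41 on the log2 scale (adjusted p 0.000163 to 0.0345). Of the 10 co-repressors 3 were higher and none lower, Tle4 by 0.50, Tle6 by 0.49 and Tle1 by 0.28 (adjusted p 3.33e-05 to 0.0367). Tle6 was lost without knock-out CHIR99021 replicate 2 (adjusted p = 0.0512), and Mdfi and Tle1 were lost with DESeq2 (adjusted p = 0.153 and 0.126) and without each of 3 libraries. Of the co-activators, apart from Ctnnb1 itself, Jup was lower by 0.33 and Pygo2 by 0.14 (adjusted p = 0.000418 and 0.0445). The call for Pygo2 was lost with DESeq2 (adjusted p = 0.147), under 2 other filters, with the compared groups alone and without each of 6 libraries. In DMSO Ctnnb1 alone of these 3 lists was called, where 3.62% of all genes were lower in the knock-out.

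**Figure D4:**
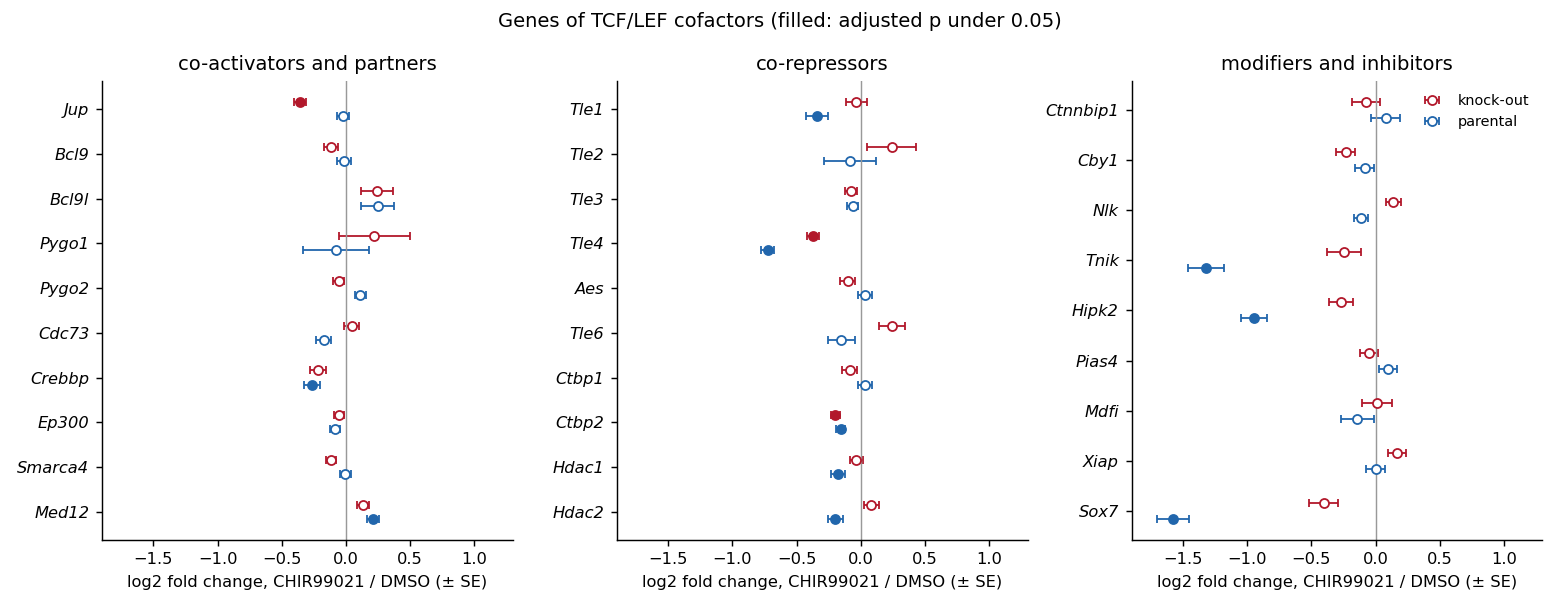
Log2 fold change of CHIR99021 over DMSO (x axis, bars of 1 SE) for each tested cofactor gene other than Ctnnb1, in knock-out cells (red) and parental cells (blue), with filled points for an adjusted p under 0.05. Sox7, Tnik, Hipk2 and Tle4 lie furthest to the left in parental cells, at -1.57, -1.32, -0.95 and -0.73.

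Known targets of TCF/LEF factors were counted beside the factors. Of 14 tested Wnt target genes CHIR99021 raised 1 and lowered 4 in the knock-out, where 2.88% of all genes rose and 4.18% fell. It raised 7 and lowered 3 in parental cells, where 9.10% of all genes rose and 10.3% fell. The median log2 fold change of the list was -0.40 in the knock-out and 0.92 in parental cells. Axin2 fell in the knock-out by 0.82 (adjusted p = 0.00312) and rose in parental cells by 3.29 ± 0.09 (SE; adjusted p = 4.27e-09). Sp5, a zinc-finger factor of the Wnt response, had 3 counts in knock-out cells with CHIR99021 and 10 in knock-out cells with DMSO, against 300 in parental cells with CHIR99021 and 3 in parental cells with DMSO. The ratio of Sp5 counts with CHIR99021 to those with DMSO was 0.299 in the knock-out (exact 95% interval 0.0528 to 1.16) and 94.8 in parental cells (32.1 to 462). T, the mesoderm factor Brachyury and also a streak marker, had 6 and 18 counts in the knock-out with CHIR99021 and DMSO and 568 and 16 in parental cells, ratios of 0.332 (0.108 to 0.872) and 33.6 (20.5 to 59.3). These intervals cover counting error only, and edgeR called neither Sp5 nor T in the knock-out (adjusted p = 0.202 and 0.152). Cdx1, a homeobox gene of the posterior body, rose in both lines, by 1.41 ± 0.20 in the knock-out and 5.84 ± 0.13 in parental cells (SE; adjusted p = 0.00247 and 1.06e-09). Notum, a secreted enzyme that inactivates Wnt proteins, and Ccnd1, which encodes cyclin D1, fell by 1.28 and 0.38 on the log2 scale in the knock-out (adjusted p = 0.000324 and 0.000528). In parental cells they fell by 0.52 and 0.12 (adjusted p = 0.00657 and 0.0457), calls lost without 2 and 6 of the single libraries. Myc fell in both lines too, at 41.3 and 43.1 CPM in knock-out cells with CHIR99021 and 88.5 and 76.8 CPM in knock-out cells with DMSO, against 47.8 and 51.0 CPM in parental cells with CHIR99021 and 63.2 and 64.8 CPM in parental cells with DMSO. Its fall of 0.97 on the log2 scale in the knock-out and 0.37 in parental cells differed by -0.60 ± 0.10 (SE; adjusted p = 0.00356). With 1 library left out at a time the counts in parental cells ran from 5 to 7 higher and 1 to 3 lower, and in the knock-out they stayed at 1 and 4.

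Between the lines in CHIR99021, 9 of the 14 Wnt targets were lower in the knock-out and none higher, where 12.5% of all genes were lower, and the median was -0.84. The count ran from 7 to 10 with 1 library left out at a time. In DMSO the knock-out had 1 of the 14 higher, where 3.13% of all genes were, and none lower. It was Myc, by 0.37 ± 0.07 (SE; adjusted p = 0.00834), and leaving out parental DMSO replicate 1 ended that call (adjusted p = 0.0720). The responses differed for 9 of the 14, all with the lower response in the knock-out, where 2.91% of all genes had a lower one. That count ran from 5 to 9 with 1 library left out at a time.

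Of 6 pluripotency genes known to be bound and held down by Tcf7l1 in mouse embryonic stem cells, 1 fell and none rose in the knock-out with CHIR99021, where 4.18% of all genes fell. In parental cells 2 rose and 1 fell, where 9.10% and 10.3% of all genes did. With 1 library left out at a time the falls in the knock-out ran from 1 to 3 and the rises in parental cells from 1 to 2. The list's median log2 fold change was -0.06 in the knock-out and 0.08 in parental cells. Tfcp2l1, a factor of the naive state, was at 857.9 and 840.9 CPM in knock-out cells with CHIR99021 and 779.0 and 791.7 CPM in knock-out cells with DMSO. It was at 1427 and 1454 CPM in parental cells with CHIR99021 and 888.2 and 898.5 CPM in parental cells with DMSO, so the parental CHIR99021 libraries stood above the rest. Its change was 0.11 in the knock-out (adjusted p = 0.0653) and 0.69 ± 0.03 in parental cells (SE; adjusted p = 1.40e-07), and the responses differed by -0.58 ± 0.05 (SE; adjusted p = 3.31e-05). Nr5a2, a nuclear receptor, fell by 0.37 in the knock-out (adjusted p = 0.00259) and was at 0.10 in parental cells (adjusted p = 0.208), with a difference of -0.47 ± 0.07 (SE; adjusted p = 0.00294). Nanog was at -0.11 in the knock-out (adjusted p = 0.0821) and fell by 0.19 in parental cells (adjusted p = 0.00283). Tbx3 rose by 0.23 ± 0.05 in parental cells (SE; adjusted p = 0.00484), a call lost without parental DMSO replicate 1 (adjusted p = 0.0560). Esrrb was at 0.00 and -0.01 in the knock-out and in parental cells.

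Between the lines in CHIR99021 4 of these 6 were lower in the knock-out, where 12.5% of all genes were, Tfcp2l1 by 0.76, Nr5a2 by 0.44, Klf2 by 0.38 and Nanog by 0.12 (log2; adjusted p 5.34e-08 to 0.0288). Tcf7l1 was higher there, and whether it bears on these genes was not tested. Nanog was lost without each of 6 libraries in turn, with adjusted p up to 0.158. In DMSO 2 were lower in the knock-out, where 3.62% of all genes were, Nanog by 0.20 and Tfcp2l1 by 0.19 (adjusted p = 0.00753 and 0.00770). Neither was called without parental DMSO replicate 1 (adjusted p = 0.0821 and 0.0740) or replicate 2 (0.0545 and 0.0805).

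**Figure D5:**
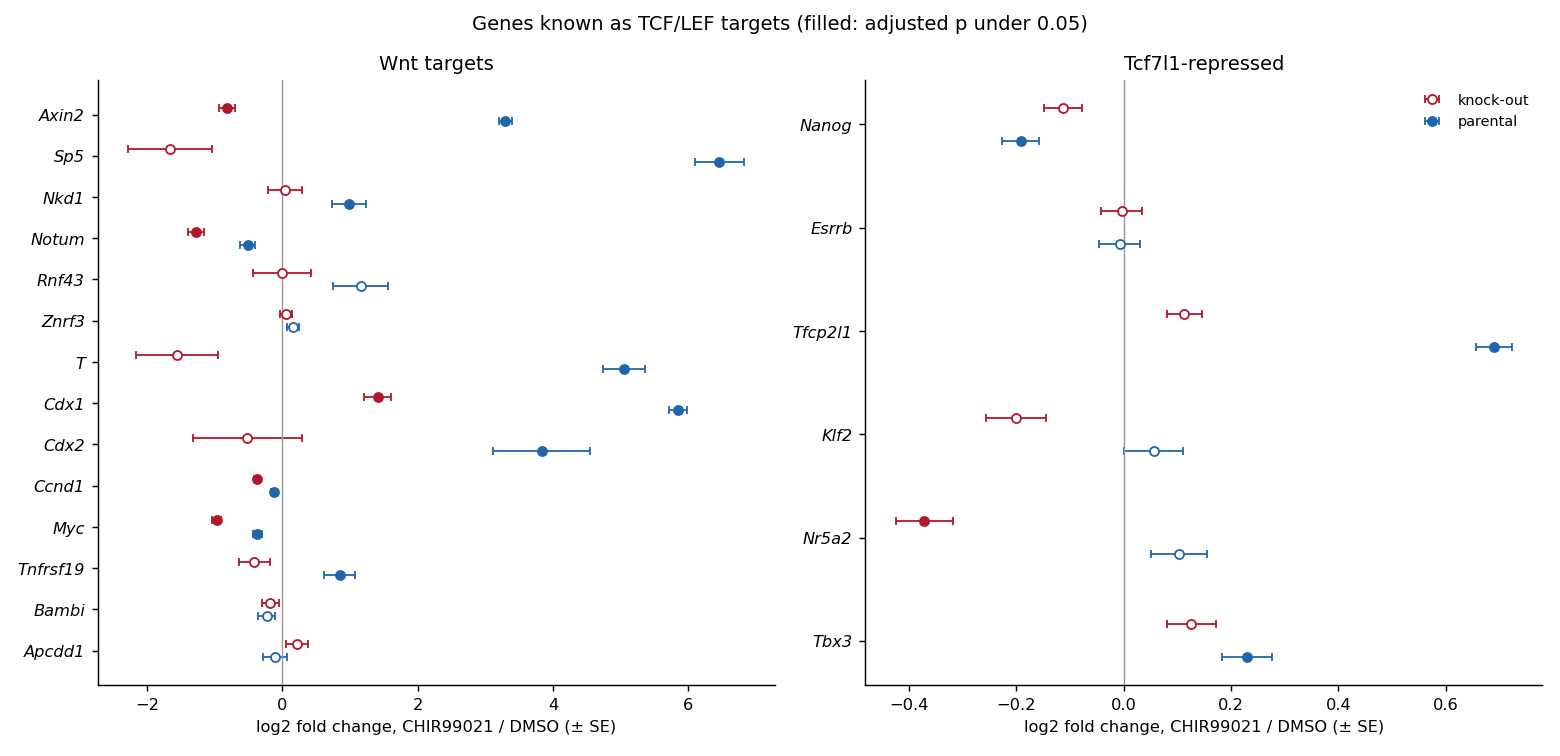
Log2 fold change of CHIR99021 over DMSO (x axis, bars of 1 SE) for tested Wnt targets and for genes known to be repressed by Tcf7l1, in knock-out cells (red) and parental cells (blue), with filled points for an adjusted p under 0.05 and its own x scale in each panel. Axin2 lies at -0.82 in the knock-out and 3.29 in parental cells, and Tfcp2l1 at 0.11 and 0.69.

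The HMG box of this family binds letters close to CTTTGAT or CTTTGAA. Both were searched on both strands, where matches on opposite strands can share end letters, in windows of 250 bases before to 50 after the starts of RefSeq genes (GRCm38.p6). Of 27025 genes 9.88% held either one. None of the 4 TCF/LEF genes did, over 9 windows. Of the 6 genes of the Tcf7l1 list 5 had a window, and none of these held a match. Of the 16 listed Wnt targets only 8 had a window, and the rest, Cdx1 among them, could not be searched. Of the 8, 4 held a match, Sp5, T, Tnfrsf19 and Dkk1, while Axin2, Cdx2, Nkd1 and Rnf43 did not. Axin2 and Tcf7, without a match in these windows, rose with CHIR99021 in parental cells, where Axin2 averaged 42.0 CPM with CHIR99021 and 4.28 CPM with DMSO. Bases outside the windows and other letters were not searched, so the lack of a match does not show that a gene has no site. The 250 bases before the start are shown for Sp5 and T, both raised by CHIR99021 in parental cells, and for Tcf7l2, which fell there. All are on the plus strand, at chr2:70474673-70474922 for Sp5, chr17:8434173-8434422 for T and chr19:55741560-55741809 for the first of the Tcf7l2 windows. Capitals mark a match, which begins 104 bases before the start in Sp5 and 235 before it in T, where it reads CTTTGAA on the other strand. Tcf7l2 has none in these letters.
Sp5: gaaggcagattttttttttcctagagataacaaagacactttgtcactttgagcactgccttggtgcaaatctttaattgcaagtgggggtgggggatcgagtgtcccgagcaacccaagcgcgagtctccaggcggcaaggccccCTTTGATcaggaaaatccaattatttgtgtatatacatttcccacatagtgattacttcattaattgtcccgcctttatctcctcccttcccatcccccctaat
T: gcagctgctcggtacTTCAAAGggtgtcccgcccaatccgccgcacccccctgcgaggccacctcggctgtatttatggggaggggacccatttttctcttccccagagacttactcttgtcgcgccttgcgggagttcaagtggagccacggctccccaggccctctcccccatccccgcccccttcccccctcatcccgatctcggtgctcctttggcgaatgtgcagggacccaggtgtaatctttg
Tcf7l2: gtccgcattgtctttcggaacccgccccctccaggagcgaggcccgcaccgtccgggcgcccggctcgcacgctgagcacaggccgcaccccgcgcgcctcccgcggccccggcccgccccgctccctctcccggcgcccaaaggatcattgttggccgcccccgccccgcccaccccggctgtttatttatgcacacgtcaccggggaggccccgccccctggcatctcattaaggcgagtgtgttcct
A match is a description of the letters, and binding was not measured.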

How the data were processed

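Polyadenylated RNA was sequenced from 8 libraries (TruSeq Stranded mRNA, per the labels' protocols). The deposited table holds expected counts, estimated reads per gene that were not normalised; the submitters' processing notes name kallisto, with no version, and GRCm38.p4. In each library 36.9% to 38.4% of entries were not whole. The strand setting of the counting and the transcript set are not given in the sources used here. Columns were matched to samples by title.

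Expected counts were rounded and filtered with edgeR 4.0.16 filterByExpr (at least 10 counts, 15 in total), which kept 99.905% to 99.918% of the counts. Libraries were scaled by TMM (factors 0.9857 to 1.0181) and fitted together in R 4.3.3 with a quasi-likelihood model of the 4 group means, leaving 4 residual degrees of freedom. Tests were 2-sided, adjusted over 17739 genes and called under 0.05. SE is the absolute log2 fold change over the root of F. CPM use the scaled library size. Depth of 23650572 counts or more makes 10 counts well under 1 CPM. The chi-square of replicate counts over its degrees of freedom was 3.26 to 4.86, where counting error alone gives about 1.

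The members and lists were chosen with earlier results of these data known, so list counts carry no set test. Named are Ctnnb1, the 4 members, up to 4 called genes of a list per comparison with the smallest adjusted p and other list members as values, and the 3 genes most like each member. Lgr5, Dkk1 and Sox17 did not pass the filter, and Tle5 is listed as Aes. Coordinates and lengths come from GENCODE M21 (GRCm38). The most abundant gene that overlaps a member averaged 30.4 counts, beside 1226 for Tcf7l1, the member it overlaps. Alternatives were DESeq2 1.42.0, limma-voom (limma 3.58.1), relative log expression size factors, other filters, an adjusted p under 0.01, the compared groups alone, a replicate block and leaving out each library. A planned comparison of the proteins was not run.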

Additional observations from a re-analysis of the deposited data

Results flagged for a closer look

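These genes are listed because the test of the difference between the lines' responses passed: the log2 response to CHIR99021 in the knock-out minus that in parental cells had an adjusted p under 0.05 (edgeR). They are 2 members and 16 other genes of the lists, of 54 looked at. Among the members the difference was -0.93 for Tcf7 and 0.66 for Tcf7l1.

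Among cofactors it was -0.33 for Jup, 0.35 for Tle4, 1.08 for Tnik, 0.68 for Hipk2 and 1.17 for Sox7. Among Wnt targets it was -4.11 for Axin2, -4.44 for Cdx1, -0.76 for Notum, -0.26 for Ccnd1 and -0.60 for Myc. It was -8.12 for Sp5, -6.60 for T and -4.35 for Cdx2, fitted values that rest on few counts in 3 of the 4 groups and depend on the prior count. It was -1.26 for Tnfrsf19. With 1 library left out at a time, the call was lost in 7 of 8 fits for Cdx2 (adjusted p = 0.0448 with all libraries), 6 for Tnfrsf19 (0.0409), 5 for Ccnd1 (0.0186), 4 for Notum (0.0164), 3 each for Jup and Hipk2 and 1 for Tle4. With DESeq2 it was lost for Notum (adjusted p = 0.0519) and Tnfrsf19 (0.0851), and with limma-voom for Cdx2 (0.108). Among genes known to be repressed by Tcf7l1 it was -0.58 for Tfcp2l1 and -0.47 for Nr5a2.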

How the results depend on the processing

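Of 237 recomputed values for Tcf7, Tcf7l1 and Tcf7l2, 232 kept their direction and their side of the threshold. Lost calls were Tcf7l1 with CHIR99021 in the knock-out, which ran from -0.48 to -0.34 with 1 library left out at a time, and Tcf7l2 between the lines in CHIR99021, from 0.34 to 0.47. Tcf7 between the lines in DMSO, never called, ran from -0.042 to 0.079. Lef1, never called, changed sign with 1 library left out, running from -0.86 to 0.77 for CHIR99021 in the knock-out, -0.25 to 0.24 in parental cells, -0.92 to 0.71 between the lines in CHIR99021, -0.67 to 0.32 in DMSO and -0.84 to 0.79 for the difference in response, and with limma-voom it was -0.11 between the lines in CHIR99021. Lef1 has no value under the filter of 5 CPM. Of the values per length recomputed with other lengths, 43 moved by more than the spread between replicates and 5 did not. Of 1174 values for list genes called in a comparison 133 lost the call and 0 reversed. The cause was not tested.

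Over all genes, CHIR99021 in the knock-out changed 1252 genes, 822 with DESeq2, 2167 with no filter beyond 1 read, 342 at an adjusted p under 0.01 and 334 to 1285 with 1 library left out. In parental cells it changed 3441, with DESeq2 2211, at 0.01 1897 and with 1 library left out 2106 to 3557. Between the lines in CHIR99021 4200 differed, with DESeq2 2709, at 0.01 2403 and with 1 left out 2567 to 4414. In DMSO 1198 differed, with DESeq2 795, with no filter 2064, at 0.01 411 and with 1 left out 359 to 1104. Responses differed for 1087, with no filter 1990, at 0.01 509 and with 1 left out 616 to 1191. There a lone library is taken to have the spread seen in the other groups.

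The labels give replicates only a number and do not say whether libraries of different groups were paired. The correlation of replicate differences was -0.012, -0.177, 0.107 and -0.141 in the 4 pairs of groups, which cannot settle that. With the replicate block the counts were 1313, 3434, 4296, 1225 and 1135, and no member's call changed. Crossed pairing, chosen after seeing the data and fitted to the compared groups alone, gave 3789 for CHIR99021 in parental cells and 1372 between the lines in DMSO. Without the pairing the compared groups alone gave 3268 and 860. The compared groups alone cannot give the difference in response.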
